A study of Arabidopsis thaliana with 12 samples.

Results

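Reactive oxygen species are removed in plant cells by a small set of enzyme families, and 10 genes of this system were followed here across Arabidopsis thaliana seedlings of 2 genotypes at 2 temperatures. The genes were taken by their locus identifiers from the 33655 features of the count table. They are the superoxide dismutases CSD1 (AT1G08830), CSD2 (AT2G28190), FSD1 (AT4G25100) and MSD1 (AT3G10920), the catalases CAT1 (AT1G20630), CAT2 (AT4G35090) and CAT3 (AT1G20620), the cytosolic ascorbate peroxidases APX1 (AT1G07890) and APX2 (AT3G09640), and ZAT12 (AT5G59820). ZAT12 is not an enzyme: it encodes a zinc finger protein that responds to oxidative stress. Of the 10 genes, 9 had enough counts to be tested, and APX2 did not.

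Superoxide dismutases turn superoxide into hydrogen peroxide, which catalases break down in peroxisomes and ascorbate peroxidases reduce with ascorbate in the cytosol and the chloroplast. Ascorbate is then regenerated through monodehydroascorbate reductase, dehydroascorbate reductase, glutathione and glutathione reductase. In green tissue, most of the load comes from photosynthetic electron transport in the chloroplast and from glycolate oxidation in photorespiration.

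The libraries were made by 3′ Tag-Seq, in which reads come from near the 3′ end of each transcript, from total RNA of seedlings that were 6 days old. One genotype was Col-0, which is wild type, and the other was spaQ, in which all 4 SPA genes are mutated; the labels do not give its alleles, and whether it is 1 isolate is not stated. SPA proteins work with the ubiquitin ligase COP1 to hold back light responses, and the design asks how they bear on gene expression at a warm temperature. After 3 days of stratification on MS medium without sucrose and 5 days at 22 °C under white light of 25 µmol, seedlings of each genotype were given 22 or 28 °C. The length of that step is 24 h in the series text but 4 h in the sample protocols, and the protocols name 22 °C even where title and characteristics say 28 °C. There were 3 libraries in each of the 4 groups, with no statement that they came from separate cultures, so p-values measure the spread between these libraries.

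Total counts per library ran from 2609808 to 9390725. Below, cool and warm stand for 22 and 28 °C. Levels are given as CPM, counts scaled to a common library size after TMM normalisation, and 3 counts, the detection floor, came to between 0.279 and 1.25 CPM. SPA1, SPA2 and SPA3 transcripts were lower in spaQ than in Col-0 at both temperatures (log2 fold changes from −1.69 to −0.92), while SPA4 was higher (1.19 and 1.32); tags may lie outside a disrupted part. PYK10, the root marker with the most tags, ran from 2214 to 2326 CPM in cool Col-0 and from 1120 to 1545 CPM in warm Col-0. In spaQ it ran from 1030 to 1830 CPM at 22 °C and from 847 to 1164 CPM at 28 °C. Root markers other than PYK10 summed to between 174 and 202 CPM in cool Col-0 and to between 8.22 and 15.8 CPM in warm Col-0. In spaQ they summed to between 3.07 and 15.3 CPM except in 2 libraries. These libraries, replicate 1 of spaQ at 22 °C with 57.5 CPM and replicate 2 of spaQ at 28 °C with 59.7 CPM, stood apart from the rest of their groups, and results that rest on them are also given without them. Of all 12 root markers, 11 or 12 had more than 0 counts in each Col-0 library at 22 °C. In replicate 1 of spaQ at 28 °C, 7 (EXPA7, COBL9, PRP3, EXPA18, LRX1, RHS19 and TIP2-3) were at 0 counts. The 8 green-tissue markers were detected in every library and summed to between 42123 and 45696 CPM in cool Col-0, 17764 and 19570 CPM in warm Col-0, 50443 and 56439 CPM in cool spaQ, and 31417 and 47475 CPM in warm spaQ. Of these 8, 5 were higher and 2 lower in spaQ than in Col-0 at each temperature, with LHCB1.3 lower at both, PSAD1 at 22 °C and LHCB2.1 at 28 °C. In whole seedlings, fewer cells of a type and less RNA per cell cannot be told apart, and the part of these marker differences in the results was not tested.

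**Figure D1:**
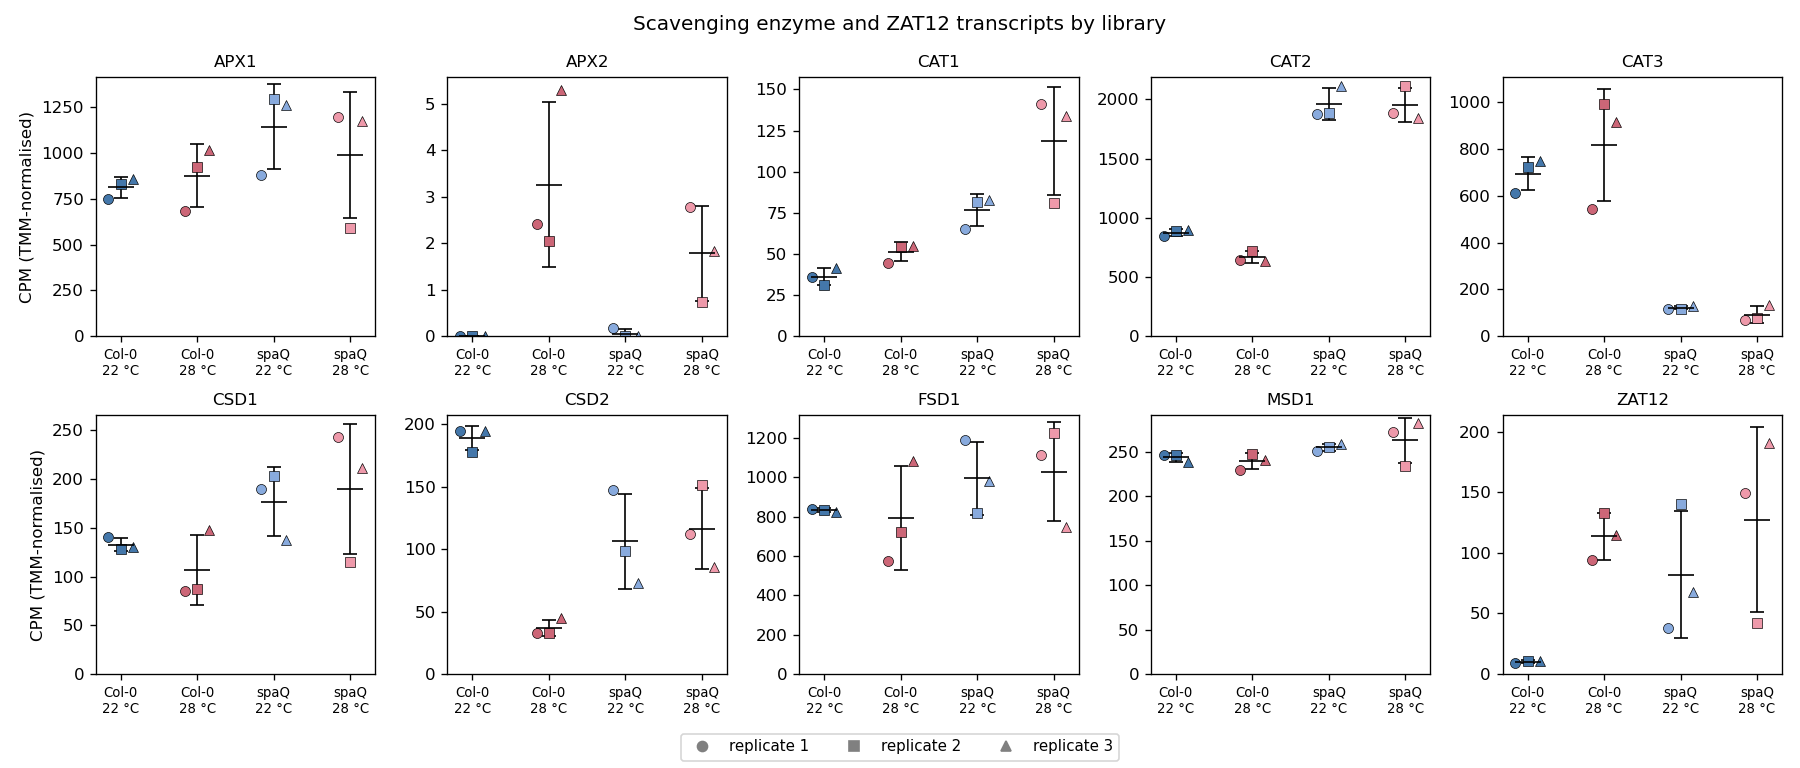
TMM-normalised CPM of the 10 genes in each of the 12 libraries, one panel per gene with its own vertical axis from 0, blue at 22 °C and red at 28 °C, with Col-0 in dark and spaQ in light shades. Symbols are replicates and bars are the mean ± SD of 3 libraries; CAT2 and CAT3 separate by genotype, CSD2 is lowest in Col-0 at 28 °C, and ZAT12 is lowest in Col-0 at 22 °C.

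The 9 tested genes differed in which comparisons they passed. In Col-0, 3 of the 9 tested genes passed the test between 28 and 22 °C (ZAT12 higher, CSD2 and CAT2 lower), a share near the 40.8% of all 17841 tested genes that passed (18.9% higher and 21.9% lower). In spaQ, 0 of 9 passed by edgeR, with 1 at an unadjusted p under 0.05 and 1 by DESeq2's Wald test (CAT1 in each case), while 12.4% of all genes passed (6.55% higher and 5.87% lower). Between spaQ and Col-0, 5 of 9 passed at 22 °C (background 42.5%, with 20.7% higher and 21.7% lower) and 5 of 9 at 28 °C (background 30.9%, with 17.4% higher and 13.5% lower); whether these counts differ from the shares over all genes was not tested. The interaction (the 28 °C effect in spaQ less the one in Col-0) passed for CSD2 and ZAT12, against 11.9% of all genes (6.58% higher and 5.29% lower). APX1, FSD1 and MSD1 passed in none of the 5 comparisons. With library totals in place of TMM, the median of all genes went from −0.02 to 0.19 on the log2 scale for warmth in Col-0, from −0.05 to −0.14 and from 0.03 to −0.23 for genotype at 22 and 28 °C, and from 0.06 to −0.12 for the interaction. The higher genes then made up 68.3% of the passing ones rather than 46.3% for warmth in Col-0, 28.4% rather than 56.2% for genotype at 28 °C, and 25.7% rather than 55.5% for the interaction.

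**Figure D2:**
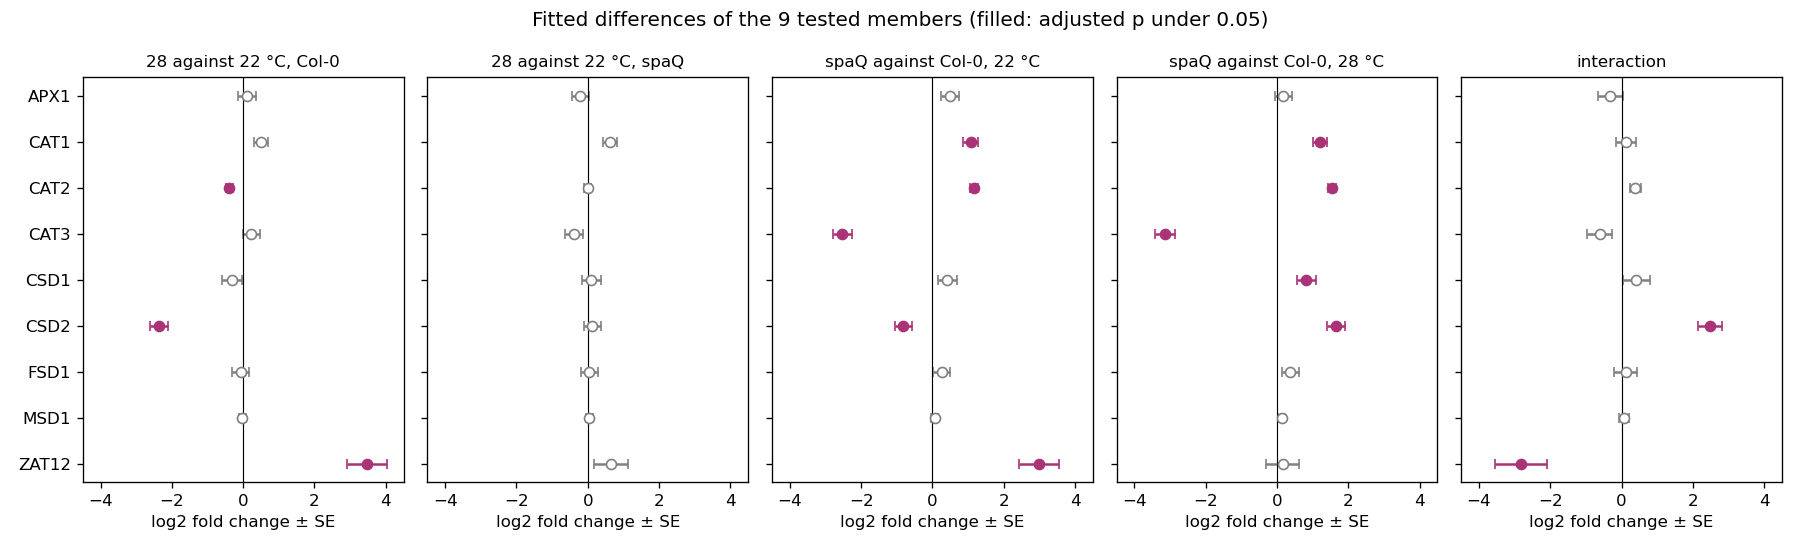
Fitted log2 fold changes ± SE of the 9 tested genes in the 5 comparisons, with filled points where the edgeR adjusted p was under 0.05. CAT2 lies right and CAT3 left of 0 in both genotype panels, and CSD2 lies at −2.36 for warmth in Col-0 but at 0.12 in spaQ.

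Among the superoxide dismutases, only CSD2, the chloroplast copper/zinc enzyme, passed the test of warmth, and it did so in Col-0. CSD2 stood at 195, 178 and 195 CPM in cool Col-0 and 33.2, 32.6 and 44.5 CPM in warm Col-0. In cool spaQ the values were 147, 98.9 and 72.6 CPM, and in warm spaQ they were 112.5, 151 and 85.9 CPM. The Col-0 groups lay far apart, with the spaQ libraries of both temperatures mixed together in the gap between them, and the highest value of each spaQ group belonged to the replicate that stood apart. CSD2 fell by 2.36 on the log2 scale in warm Col-0 (SE 0.252, adjusted p 3.61e-05), which is a 5.13-fold lower level, and in spaQ the difference was 0.12 (SE 0.243, adjusted p 0.792). The interaction was 2.48 (SE 0.347, adjusted p 0.00239) and passed under all 19 alternatives, among them the one without the 2 libraries that stood apart (2.48, adjusted p 2.91e-05).

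The sign of the genotype difference of CSD2 turned with temperature. It was lower in spaQ than in Col-0 at 22 °C (log2 fold change −0.82, SE 0.241, adjusted p 0.0159) and higher at 28 °C (1.66, SE 0.25, adjusted p 0.000272). The difference at 22 °C lost the test without replicate 2 (adjusted p 0.0581) or replicate 3 (0.0721) of cool spaQ. Without the 2 libraries that stood apart, the difference was −1.12 at 22 °C (adjusted p 0.00013) and 1.36 at 28 °C (adjusted p 3.31e-05). Groups did not overlap for CSD2 in Col-0 across temperatures or between genotypes at either temperature, as was the case for 59.5%, 58.1% and 40.7% of all genes. The summed green-tissue markers were also lowest in warm Col-0, and at 22 °C their sum was higher in spaQ, where CSD2 was lower. Single markers went both ways: LHCB1.3, an antenna protein, stood at 6852, 6569 and 5737 CPM in cool Col-0 and 3315, 2667 and 3222 CPM in cool spaQ, and it was lowest in warm spaQ (840.6 to 1659 CPM, against 2122 to 2685 CPM in warm Col-0). Root markers other than PYK10 were highest in cool Col-0, as CSD2 was, and within each spaQ group highest in the replicate with the most CSD2. The part of either marker list in the CSD2 result was not tested.

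The cytosolic copper/zinc enzyme CSD1 showed smaller differences. CSD1 stood at 140.2, 128 and 131 CPM in cool Col-0 and 85.1, 86.8 and 148 CPM in warm Col-0. In cool spaQ the values were 190.2, 203.5 and 137 CPM, and in warm spaQ they were 243, 115 and 211 CPM. The groups overlapped in each comparison, with the lowest spaQ value at 28 °C in the replicate that stood apart. CSD1 was higher in warm spaQ (0.82, SE 0.269, adjusted p 0.0332), but this call was kept in 11 of 20 alternatives and ended with library totals (adjusted p 0.113), with only the compared libraries (0.122) and without any of 6 libraries. Without the 2 libraries that stood apart it was 1.03 (adjusted p 0.00207). The warm difference was −0.31 in Col-0 (adjusted p 0.375) and 0.09 in spaQ (adjusted p 0.863). CSD1 lies opposite AT1G08840 on the other strand, and since the strand setting of the counts is not given in the sources used here, reads of the pair may be mixed.

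The ratio of the copper/zinc enzymes followed from this. CSD1 over CSD2 was 0.703 ± 0.0281 (SD, n = 3) in Col-0 at 22 °C and 2.85 ± 0.417 at 28 °C, so that the cytosolic form had fewer tags at 22 °C and more at 28 °C. In spaQ the ratio was 1.75 ± 0.402 at 22 °C and 1.79 ± 0.906 at 28 °C. These are ratios of tags and need not equal ratios of transcripts. The number of 3′ tags does not grow with transcript length, but other differences in tag yield between genes were not measured. CSD1 reads may also be mixed with those of AT1G08840.

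FSD1, the iron superoxide dismutase, had the most tags of the 4 dismutases in every library. FSD1 stood at 841, 834 and 824 CPM in cool Col-0, at 575, 719.9 and 1085 CPM in warm Col-0, at 1190, 819 and 979 CPM in cool spaQ, and at 1116, 1224 and 745 CPM in warm spaQ. All groups overlapped, and its share of dismutase counts ran from 56.3% to 71.5% over the 12 libraries. The largest difference by size was 0.37 (SE 0.229, adjusted p 0.246), between the genotypes at 28 °C, and without replicate 3 of warm Col-0 it was 0.67 (adjusted p 0.0399). FSD1 over CSD2 was 4.41 ± 0.246 and 21.3 ± 3.6 in Col-0 at 22 and 28 °C, and 9.96 ± 3.07 and 8.9 ± 0.93 in spaQ (SD, n = 3 each).

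MSD1, the mitochondrial manganese enzyme, was the steadiest of the 10 genes. Its level ran from 229.7 to 281.7 CPM over all 12 libraries, a range of 0.29 on the log2 scale with an SD of 0.0863. Its differences lay between −0.02 and 0.13 with SEs near 0.0982 to 0.0988 in the comparisons of 2 groups, and with library totals 3 of these 4 changed sign. At 22 °C the genotypes did not overlap (238 to 246 CPM in Col-0, 251 to 258.5 CPM in spaQ), and the adjusted p was 0.617.

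Copper/zinc dismutases are known targets of the microRNA miR398, together with CCS, which loads copper into these enzymes, and COX5B1, a subunit of cytochrome c oxidase. The mature sequences are shown so that the best pairing stretch of each of these 4 transcripts can be read against them. They were read from the RefSeq genome TAIR10.1, with the seed, bases 2 to 8, in capitals, and the seed is the same in both.
miR398a-3p, chr2:1041012-1041032, plus strand: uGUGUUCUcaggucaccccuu
miR398b-3p, identical to miR398c-3p, chr5:4691107-4691127, plus strand: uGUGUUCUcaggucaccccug
The best pairing stretch of each transcript follows, 5′ to 3′ on the gene's strand, with bases that pair with the microRNA in capitals and wobble or unpaired bases in lower case.
CSD1, chr1:2827177-2827685, plus strand, 5′ UTR, across an intron: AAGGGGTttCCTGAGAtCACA
CSD2, chr2:12015572-12015592, plus strand, coding: tgcGGGTGACCTGgGAAacat
CCS, chr1:4267521-4267541, minus strand, coding: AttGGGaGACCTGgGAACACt
COX5B1, chr3:5299204-5299224, plus strand, 5′ UTR: AAGGtGTGACCTGAGAAtcac
Paired bases numbered 18 of 21 in CSD1, 13 in CSD2, 16 in CCS and 16 in COX5B1. The same search gave 15 in FSD1 and 13 in each of CAT2, CAT3 and ZAT12. The number of paired bases therefore does not set CSD2 apart from those members. Without bulges, 9 of 27440 genes had a stretch scoring at least as high against miR398b-3p as that of CSD1, 391 as high as that of CCS or COX5B1, and 3158 as high as that of CSD2. A pairing stretch is a description of letters and not evidence of cleavage in these seedlings.

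CCS and COX5B1 were also lower in warm Col-0, by less than CSD2, and neither passed the genotype test at both temperatures. CCS stood at 58.8, 54.5 and 61.1 CPM in cool Col-0 and 32.9, 30.8 and 37.3 CPM in warm Col-0, while cool spaQ held 53.3, 57.1 and 45.9 CPM and warm spaQ 79.2, 55.5 and 62.3 CPM. It fell by 0.78 in warm Col-0 (SE 0.14, adjusted p 0.000824), and the spaQ groups overlapped (0.32, adjusted p 0.155). The interaction of CCS was 1.11 (SE 0.199, adjusted p 0.00669) and passed under all 19 alternatives. COX5B1 stood at 100.4, 92.0 and 85.7 CPM in cool Col-0 and 44.5, 38.3 and 49.3 CPM in warm Col-0, while cool spaQ held 64.7, 70.1 and 59.6 CPM and warm spaQ 68.1, 57.5 and 47.9 CPM. COX5B1 fell by 1.07 in warm Col-0 (SE 0.139, adjusted p 0.000103), and its interaction was 0.90 (SE 0.199, adjusted p 0.0151), which ended without replicate 1 or 2 of cool Col-0 or replicate 3 of cool spaQ (highest adjusted p 0.0598). In spaQ against Col-0, CCS was −0.16 at 22 °C (adjusted p 0.398) and higher by 0.95 at 28 °C (adjusted p 0.000244), while COX5B1 was lower at 22 °C (−0.51, adjusted p 0.0105, which ended without replicate 1 of cool Col-0) and 0.38 at 28 °C (adjusted p 0.0565). Counts of the MIR398B precursor, too few to test, were 8, 3 and 7 in cool Col-0, 27, 12 and 18 in warm Col-0, 6, 1 and 1 in cool spaQ, and 1, 1 and 0 in warm spaQ. In CPM the precursor stood at 2.41, 0.839 and 1.57 in cool Col-0 and at 2.51, 3.08 and 2.07 in warm Col-0, so the temperatures overlapped. The spaQ libraries lay between 0 and 1.01 CPM, and the mature microRNA was not measured.

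**Figure D3:**
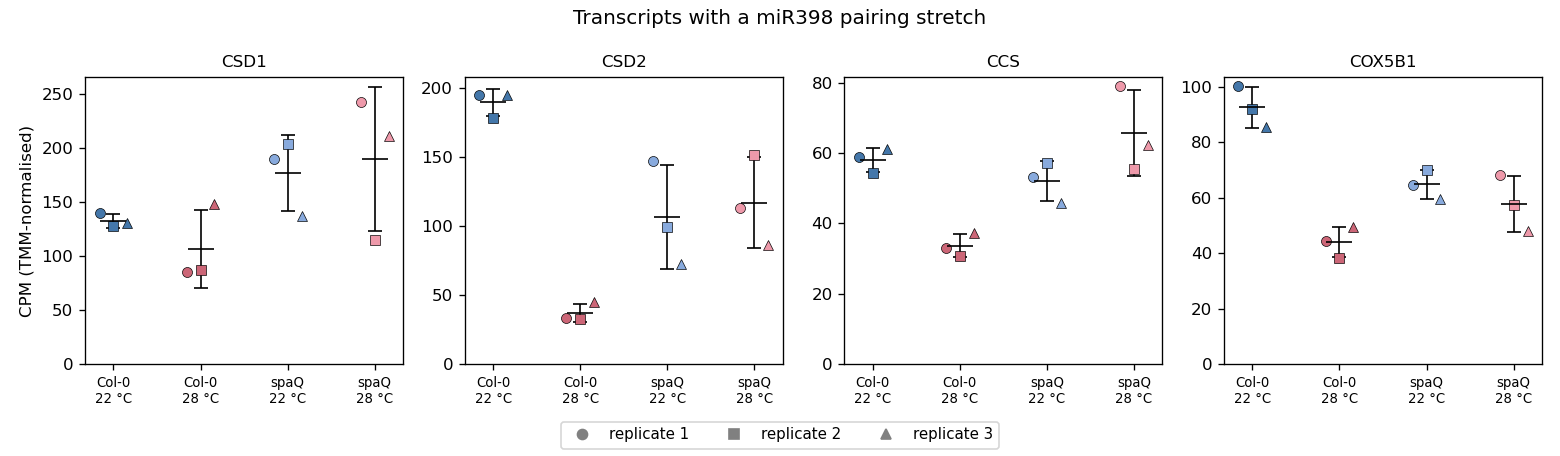
TMM-normalised CPM of CSD1, CSD2, CCS and COX5B1 by library, with the mean ± SD of 3 libraries and a vertical axis from 0. CSD2, CCS and COX5B1 separate the Col-0 groups, with means of 189 and 36.8 CPM, 58.1 and 33.7 CPM, and 92.7 and 44.0 CPM at 22 and 28 °C, and CSD1 does not.

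Among the catalases, CAT2 and CAT3 differed between the genotypes in opposite directions. CAT2, the main catalase of photorespiring leaves, stood at 842, 884.5 and 899 CPM in cool Col-0 and 647, 723 and 636 CPM in warm Col-0. In cool spaQ the values were 1874, 1883 and 2112 CPM, and in warm spaQ they were 1887, 2112 and 1846 CPM. All spaQ libraries lay above all Col-0 libraries, by 2.24-fold at 22 °C (log2 1.16, SE 0.106, adjusted p 6.52e-06) and 2.91-fold at 28 °C (1.54, SE 0.107, adjusted p 7.72e-07). CAT2 fell by 0.39 in warm Col-0 (SE 0.105, adjusted p 0.0103), a call that ended with library totals (−0.17, adjusted p 0.227), with no filter on low counts (adjusted p 0.0662) and without replicate 2 of cool Col-0 (0.0791). In spaQ the warm difference was −0.01 (adjusted p 0.984), and the interaction was 0.38 (SE 0.148, adjusted p 0.114).

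CAT3 ran the other way. It stood at 614, 721.5 and 750 CPM in cool Col-0 and 545, 992 and 916 CPM in warm Col-0, but 117, 117 and 128 CPM in cool spaQ and 67.7, 75.8 and 134 CPM in warm spaQ. No spaQ library came near a Col-0 library, while the temperatures overlapped within each genotype. CAT3 fell by 2.53 in spaQ at 22 °C (SE 0.261, adjusted p 1.6e-05) and by 3.14 at 28 °C (SE 0.268, adjusted p 3.85e-06), which are 5.76-fold and 8.82-fold lower levels. Both genotype differences of CAT2 and of CAT3 passed under all 20 alternatives. The warm difference of CAT3 was 0.23 in Col-0 (adjusted p 0.471) and −0.38 in spaQ (adjusted p 0.36), and its interaction (−0.62, adjusted p 0.289) passed only without replicate 3 of warm spaQ (−0.98, adjusted p 0.0371). The summed green-tissue markers, and 5 of the 8, were higher in spaQ than in Col-0 at each temperature, as CAT2 was, while 2 of the 8 were lower, and their part in its difference was not tested.

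CAT1, a catalase with few tags here, was higher in spaQ as well. CAT1 stood at 35.9, 31.0 and 41.6 CPM in cool Col-0, at 44.7, 54.5 and 54.7 CPM in warm Col-0, at 65.4, 81.6 and 83.0 CPM in cool spaQ, and at 141, 80.7 and 134 CPM in warm spaQ. The genotypes did not overlap at either temperature, and the low value of warm spaQ belonged to the replicate that stood apart. CAT1 was 2.1-fold higher in spaQ at 22 °C (log2 1.07, SE 0.203, adjusted p 0.00123) and 2.31-fold at 28 °C (1.21, SE 0.195, adjusted p 0.000459). The warm differences lay just outside the threshold, at 0.50 in Col-0 (SE 0.2, adjusted p 0.0645) and 0.63 in spaQ (SE 0.195, adjusted p 0.0527). Without the 2 libraries that stood apart both passed (0.56, adjusted p 0.00214, and 0.73, adjusted p 0.00504), and over all alternatives they passed in 6 and 5 of 20.

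The makeup of the catalase pool differed between the genotypes by more than its sum did. The summed level was 1606 ± 103 and 1538 ± 273 CPM in cool and warm Col-0, against 2154 ± 147.5 and 2159 ± 95.2 CPM in cool and warm spaQ (SD, n = 3 each). CAT2 made up 54.5% ± 1.7 and 44.2% ± 7.01 of catalase counts in Col-0, but 90.8% ± 0.355 and 90.2% ± 2.89 in spaQ. CAT3 made up 43.2% ± 1.78 and 52.4% ± 7.21 in Col-0, but 5.61% ± 0.0758 and 4.31% ± 1.77 in spaQ, and CAT1 never passed 6.73% in a library. CAT2 over CAT3 was 1.26 ± 0.0933 and 0.87 ± 0.275 in Col-0, and 16.2 ± 0.223 and 23.2 ± 8.14 in spaQ. The ratio was 12.8-fold higher in spaQ at 22 °C and 26.1-fold higher at 28 °C, without overlap; an exact two-sided permutation test gave p 0.1 each time, the smallest that 3 against 3 libraries allow. Such a ratio does not depend on the scaling of the libraries.

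**Figure D4:**
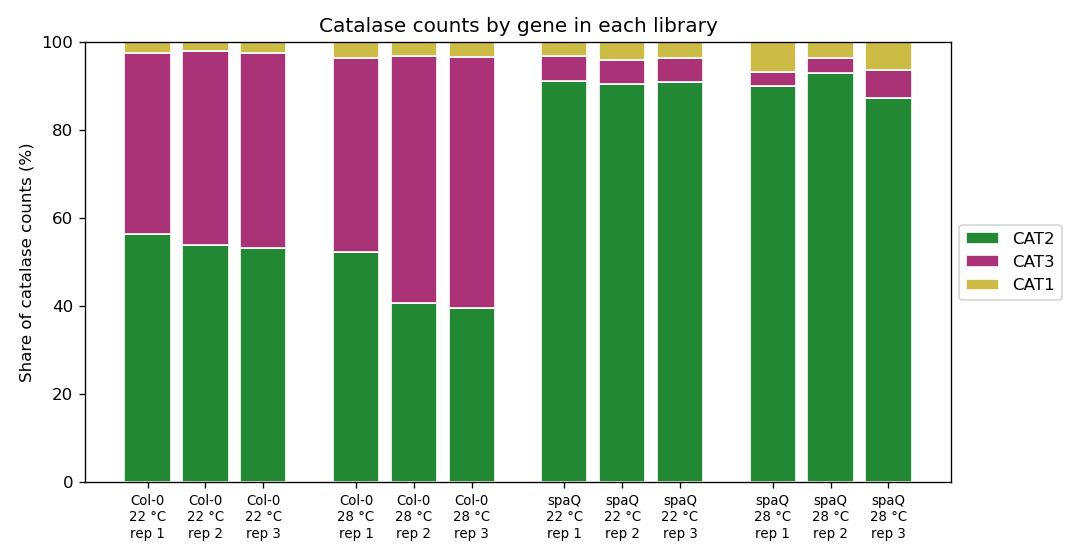
Shares of catalase counts taken by CAT1, CAT2 and CAT3 in each of the 12 libraries, in percent, stacked to 100. CAT3 takes between 41.1% and 57% in the Col-0 libraries and between 3.23% and 6.34% in the spaQ libraries.

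CAT2 and CAT3 are known in Arabidopsis to peak in different parts of the day, CAT2 in the morning and CAT3 in the evening, under the circadian clock. Their upstream sequences are printed for a search of motifs. The part of the clock or of any motif in the genotype differences of CAT2 and CAT3 was not tested. The 250 bases before the annotated gene start were read from TAIR10.1, on the gene's strand; the build behind the counts is not given in the sources used here, and genes were found by locus tag. Both strands were searched for GAANNTTC and TTCNNGAA (cores of heat shock elements, which can overlap each other), CACGTG (G-box), GTAC (copper response core), AAAATATCT (evening element), AAAAATCT (a CCA1 site) and TTGAC (W-box core). All matches but those of TTGAC are in capitals.
CAT2, chr4:16703505-16703754, minus strand: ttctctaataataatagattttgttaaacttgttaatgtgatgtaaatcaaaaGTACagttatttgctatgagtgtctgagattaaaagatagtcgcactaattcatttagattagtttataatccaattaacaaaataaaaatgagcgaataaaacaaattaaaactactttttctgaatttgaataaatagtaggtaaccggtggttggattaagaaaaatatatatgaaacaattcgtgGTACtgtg
CAT3, chr1:7142722-7142971, plus strand: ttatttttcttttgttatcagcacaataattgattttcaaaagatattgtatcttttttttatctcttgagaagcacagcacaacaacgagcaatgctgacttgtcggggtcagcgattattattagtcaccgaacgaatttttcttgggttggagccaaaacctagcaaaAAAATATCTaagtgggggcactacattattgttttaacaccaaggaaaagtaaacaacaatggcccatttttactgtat
CAT3 held 1 evening element at position −79 from the gene start, a motif that 2.36% of 27443 such windows hold. CAT2 held no evening element and 2 copies of GTAC, at −197 and −8, which is found in 34.3% of windows. GTAC was also present in CSD1, at −11 and −7, in FSD1, at −145, and in APX2, at −233. CAT1 and CAT3 are neighbours on one strand with 95 bases between them, and CAT2 is overlapped on the other strand by AT4G35080, so that reads past an end could be counted for a neighbour. No stretch of 50 bases in the last 500 bases of any of the 10 transcripts was found in another gene.

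The cytosolic ascorbate peroxidases behaved unlike each other. APX1, the constitutive form, stood at 747, 832 and 856 CPM in cool Col-0, at 685, 925 and 1015 CPM in warm Col-0, at 877, 1291 and 1260 CPM in cool spaQ, and at 1196, 591 and 1175 CPM in warm spaQ. The lowest value of each spaQ group belonged to the replicate that stood apart. At 22 °C the genotypes did not overlap, and the difference was 0.49 (SE 0.244, adjusted p 0.122). Without those 2 libraries it was 0.67 at 22 °C (adjusted p 0.00113) and 0.38 at 28 °C (adjusted p 0.0387), against 0.17 (adjusted p 0.644) with them. Warm differences were 0.11 in Col-0 (adjusted p 0.753) and −0.21 in spaQ (adjusted p 0.625).

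APX2, known as a heat-inducible form, had at most 1 count in a library at 22 °C and at least 3 in every library at 28 °C. Its counts were 0, 0 and 0 in cool Col-0 and 26, 8 and 46 at 28 °C, and 1, 0 and 0 in cool spaQ and 7, 3 and 6 at 28 °C. At 28 °C this came to 2.42, 2.06 and 5.3 CPM in Col-0 and to 2.77, 0.734 and 1.84 CPM in spaQ, with the lowest value again in the spaQ replicate that stood apart. The temperatures did not overlap in either genotype, which in spaQ held for 25.6% of all tested genes, and the genotypes overlapped at 28 °C. In Col-0 the mean at 28 °C (3.26 ± 1.78 CPM, n = 3) was 4.05-fold the mean floor of 3 counts per library at 22 °C. In spaQ the mean at 28 °C (1.78 ± 1.02 CPM, n = 3) was 1.84-fold the floor at 22 °C, 0.968 CPM. Replicate 2 of warm spaQ, at 0.734 CPM, lay below that floor. These ratios leave out the spread of the warm libraries, so they are not lower bounds. The gene did not pass the filter on low counts; in an edgeR fit with no filter its warm differences had adjusted p 0.000272 in Col-0 and 0.0392 in spaQ, and its interaction 0.507. The spaQ call ended in each of 6 further fits that kept the gene, those without 1 library (adjusted p 0.0523 to 0.122), while the Col-0 call held in them.

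The upstream window of APX2 is printed because it is the gene that was detected almost only at 28 °C.
APX2, chr3:2955906-2956155, plus strand: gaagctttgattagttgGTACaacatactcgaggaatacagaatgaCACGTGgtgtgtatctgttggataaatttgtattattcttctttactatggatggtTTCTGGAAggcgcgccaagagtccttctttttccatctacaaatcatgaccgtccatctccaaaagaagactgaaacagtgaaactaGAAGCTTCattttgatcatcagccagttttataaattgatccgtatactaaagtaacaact
It held GAANNTTC at −61 (9.55% of windows), TTCNNGAA at −148 (7.68%), CACGTG at −204 (6.49%) and GTAC at −233. APX1 held GAANNTTC at −116, and CAT1 held TTCNNGAA at −232 and −175. A match says only that the letters are present in the window. Of the 8 genes listed as targets of heat shock factors, 7 were tested. Among these, 5 were higher in warm Col-0 (median 5.09) and 7 in warm spaQ (median 4.3). That was 71.4% and 100% of them, against 40.8% and 12.4% of all genes passing in either direction. Without the 2 libraries that stood apart, 5 were higher in warm spaQ. HSP101, a heat-induced chaperone, rose by 5.45 in Col-0 (SE 0.92, adjusted p 0.00055) and by 4.88 in spaQ (SE 0.905, adjusted p 0.00527). HSFA2, a heat shock factor, rose by 6.9 in Col-0 (SE 1.2, adjusted p 0.000678). Its counts in cool Col-0 were 1, 2 and 0, below the floor of 3, so the size of this rise is uncertain. In spaQ the HSFA2 counts were 4, 6 and 2 at 22 °C and 114, 13 and 53 at 28 °C. The summed level of the list in warm spaQ was 1762, 338.5 and 509.2 CPM, lowest in the replicate that stood apart, and the part of its level in the APX2 counts was not tested.

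ZAT12 had the largest fold change of the 9 tested genes, and it was low in a single group. ZAT12 stood at 8.74, 10.9 and 10.5 CPM in cool Col-0 and 93.9, 133 and 114 CPM in warm Col-0. In cool spaQ the values were 38, 140.2 and 67.5 CPM, and in warm spaQ they were 149, 42.3 and 191 CPM. All other groups lay above Col-0 at 22 °C without overlap, and they overlapped among themselves. ZAT12 rose 11.2-fold in warm Col-0 (log2 3.48, SE 0.56, adjusted p 0.0004) and was 7.98-fold higher in spaQ at 22 °C (log2 2.996, SE 0.565, adjusted p 0.0012), and both passed under all 20 alternatives. The genotypes at 28 °C differed by 0.16 (SE 0.467, adjusted p 0.839).

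In spaQ the warm difference of ZAT12 was 0.65 (SE 0.48, adjusted p 0.411), and the lowest value of each spaQ group came from the replicate that stood apart. Without replicate 2 of spaQ at 28 °C the difference was 1.08 and passed (adjusted p 0.045), and without both libraries it was 0.70 (adjusted p 0.0851). The interaction was −2.83 (SE 0.731, adjusted p 0.0269). It ended without any 1 of 7 libraries (all 3 of Col-0 at 22 °C, replicates 2 and 3 of Col-0 at 28 °C, and replicates 2 and 3 of spaQ at 22 °C; highest adjusted p 0.0702), and it was −2.84 (adjusted p 0.000269) without the 2 that stood apart. Root markers other than PYK10 moved against ZAT12: they were highest in Col-0 at 22 °C and, within each spaQ group, highest in the replicate with the lowest ZAT12. Their part in this result was not tested.

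ZAT12's upstream window is printed for the same motif search.
ZAT12, chr5:24102564-24102813, plus strand: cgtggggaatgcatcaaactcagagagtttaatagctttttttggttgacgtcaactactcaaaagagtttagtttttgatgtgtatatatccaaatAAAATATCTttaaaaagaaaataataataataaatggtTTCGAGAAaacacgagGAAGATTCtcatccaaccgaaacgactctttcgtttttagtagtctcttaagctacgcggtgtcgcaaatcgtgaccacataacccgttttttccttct
It held GAANNTTC at −99, TTCNNGAA at −115, an evening element at −153 and TTGAC, which 44.9% of windows hold, at −205 and −200. CAT3 and ZAT12 were the 2 genes of the 10 with an evening element. At 22 °C CAT3 was lower and ZAT12 higher in spaQ, and the part of the motif in either difference was not tested.

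Other genes of oxidative signalling were counted beside ZAT12. Of 14 tested in a list of 15, 12 were higher and 0 lower in warm Col-0 (median 1.81, against −0.02 over all genes), and 12 were higher and 0 lower in spaQ at 22 °C (median 2.37, against −0.05). In warm spaQ, 1 was higher and 0 lower (median 0.22, against 0.02), and at 28 °C 4 were higher in spaQ and 0 lower (median 0.54, against 0.03). For the interaction, 7 were lower and 0 higher (median −1.81, against 0.06). For warmth in Col-0 and spaQ, 85.7% and 7.14% of the list passed, against 40.8% and 12.4% of all genes. For genotype at 22 and 28 °C it was 85.7% and 28.6%, against 42.5% and 30.9%. For the interaction it was 50%, against 11.9%, and these differences were not tested. Without the 2 libraries that stood apart, the counts in warm spaQ became 3 higher and 3 lower, those between the genotypes at 28 °C 10 higher and 0 lower, and those of the interaction 9 lower and 0 higher.

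ZAT10, a related zinc finger repressor, rose by 3.61 in warm Col-0 (SE 0.451, adjusted p 8.12e-05) and was 4.39 higher in spaQ at 22 °C (SE 0.449, adjusted p 1.47e-05). It stood between 2.11 and 3.8 CPM in cool Col-0, between 25.9 and 54.5 CPM in warm Col-0, and between 47.0 and 122 CPM in spaQ over both temperatures. AT3G28580 went up by 3.81 in warm Col-0 (SE 0.835, adjusted p 0.00302) and had an interaction of −5.69 (SE 1.09, adjusted p 0.0087). OXI1, a kinase induced by oxidative signals, had an interaction of −2.62 (SE 0.572, adjusted p 0.0142). DREB2A, a transcription factor of drought and heat responses, was the gene of the list that rose in both genotypes, by 3.21 in Col-0 (SE 0.414, adjusted p 9.88e-05) and by 1.74 in spaQ (SE 0.353, adjusted p 0.0083).

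**Figure D5:**
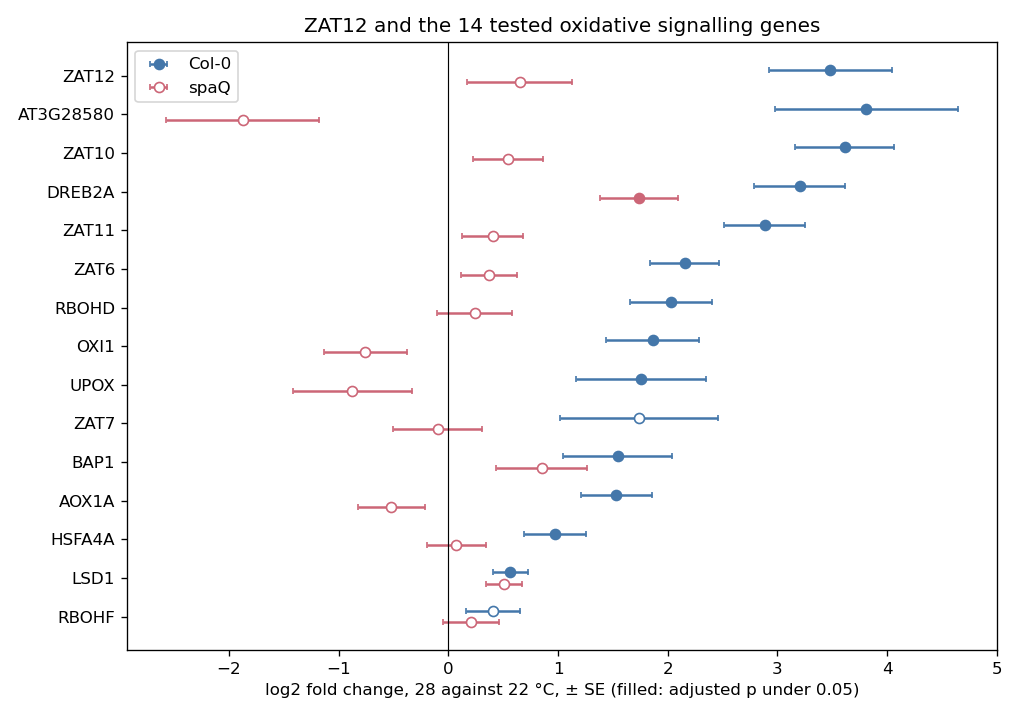
Log2 fold changes ± SE for 28 against 22 °C of ZAT12 and the 14 tested genes of oxidative signalling in Col-0 (blue) and spaQ (red), filled where the edgeR adjusted p was under 0.05. In Col-0, ZAT12 and 12 of the 14 are filled and all lie above 0; in spaQ, DREB2A is the filled one.

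The remaining scavenging enzymes were counted as a list of 36, of which 34 were tested. In warm Col-0, 8 were higher and 14 lower (median −0.02, equal to that of all genes at this precision), and with library totals 11 were higher and 11 lower. In warm spaQ, 3 were higher and 6 lower. Against Col-0, spaQ had 16 higher and 4 lower at 22 °C (median 0.37) and 19 higher and 1 lower at 28 °C (median 0.46, and 12 higher and 3 lower with library totals). For the interaction 9 were higher and 1 lower, which turned to 1 higher and 3 lower with library totals. For warmth in Col-0 and spaQ, 64.7% and 26.5% of the list passed, against 40.8% and 12.4% of all genes. It was 58.8% for genotype at each temperature and 29.4% for the interaction. Over all genes these shares were 42.5% at 22 °C, 30.9% at 28 °C and 11.9%, and the difference was not tested.

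GPX7, a chloroplast glutathione peroxidase, had the largest genotype difference among them. GPX7 stood at 9.65, 12.6 and 9.4 CPM in cool Col-0 and 5.02, 6.17 and 5.07 CPM in warm Col-0, while cool spaQ held 137, 137 and 178 CPM and warm spaQ 152, 165 and 121 CPM. The genotypes were far apart at both temperatures, by 3.83 (SE 0.179, adjusted p 7.83e-08) and 4.78 (SE 0.184, adjusted p 1.82e-08). DHAR1, a dehydroascorbate reductase, rose by 1.29 in warm Col-0 (SE 0.269, adjusted p 0.00226), was 2.03 lower in spaQ at 28 °C on the log2 scale (−2.03, adjusted p 0.000144) and had an interaction of −1.47 (adjusted p 0.0305). DHAR2, another dehydroascorbate reductase, rose in both genotypes, by 1.65 (adjusted p 0.00012) and 1.5 (adjusted p 0.00169). NTRC, a chloroplast thioredoxin reductase that reduces peroxiredoxins, fell by 1.37 in warm Col-0 (SE 0.179, adjusted p 0.000104) and was 1.37 higher in spaQ at 28 °C (adjusted p 9.47e-05).

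CSD3, the peroxisomal copper/zinc dismutase, rose by 1.13 in warm spaQ (SE 0.151, adjusted p 0.000857). SAPX, the stromal ascorbate peroxidase, fell by 1.07 in warm spaQ (SE 0.182, adjusted p 0.00322). Both moved the same way in Col-0. There CSD3 ran from 36.62 to 42.51 CPM at 22 °C and from 57.81 to 69.15 CPM at 28 °C. SAPX ran from 154.6 to 173.9 CPM at 22 °C and from 49.54 to 91.24 CPM at 28 °C in Col-0. GPX2 and GR1, a glutathione peroxidase and the cytosolic glutathione reductase, were higher in spaQ at 22 °C by 1.52 (adjusted p 0.00013) and 1.21 (adjusted p 0.000143). At 28 °C spaQ also lay above Col-0 without overlap for each. GPX2 ran from 162.6 to 182.1 CPM in warm Col-0 and from 283.5 to 496.6 CPM in warm spaQ. GR1 ran from 144.9 to 169.8 CPM in warm Col-0 and from 179.8 to 274.4 CPM in warm spaQ. Of the 7 genes of ascorbate and glutathione synthesis, 4 were higher and 1 lower in warm Col-0. Between genotypes at 22 °C, 4 were higher and 1 lower in spaQ. In each of these comparisons 71.4% of the list passed, against 40.8% and 42.5% of all genes, and the difference was not tested. GSH1 and GSH2, which make glutathione, rose by 1.001 (adjusted p 0.0132) and 1.03 (adjusted p 0.0155) in warm Col-0. The call for GSH2 ended without replicate 2 of warm Col-0 (adjusted p 0.0576).

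Genes of photorespiration and the peroxisome, the pathway that brings hydrogen peroxide to the catalases, were counted beside CAT2. Of 11 tested in a list of 12, 3 were higher and 7 lower in warm Col-0 (median −0.58), and 1 was higher and 1 lower in warm spaQ. Against Col-0, spaQ had 9 higher and 1 lower at 22 °C (median 0.53) and 7 higher and 2 lower at 28 °C (median 1.03). For warmth in Col-0 and spaQ and genotype at 22 and 28 °C, 90.9%, 18.2%, 90.9% and 81.8% of the list passed. Over all genes the shares were 40.8%, 12.4%, 42.5% and 30.9%, and the difference was not tested. GLDP1, a subunit of glycine decarboxylase, was higher in spaQ by 1.1 at 22 °C (adjusted p 2.16e-05) and 1.75 at 28 °C (adjusted p 7.63e-07). SGAT, the serine-glyoxylate aminotransferase, fell by 1.24 in warm Col-0 (SE 0.107, adjusted p 1.21e-05) and by 0.44 in warm spaQ (SE 0.106, adjusted p 0.0181), with an interaction of 0.80 (adjusted p 0.0078). The call in warm spaQ ended with only the libraries compared, with the replicate block and without replicate 1 of cool spaQ (highest adjusted p 0.173). GOX2, a glycolate oxidase, fell by 0.84 in warm Col-0 (adjusted p 0.000278), while GOX3, another glycolate oxidase, rose by 1.53 (adjusted p 0.000957).

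Copper homeostasis genes were counted beside CSD1 and CSD2. Of 15 tested in a list of 19, 4 were higher and 7 lower in warm Col-0 (median −0.39), and 2 were higher and 1 lower in warm spaQ (median 0.06). Between the genotypes 2 were higher and 4 lower in spaQ at 22 °C, and 5 were higher and 2 lower at 28 °C. The counts at 28 °C became 2 higher and 4 lower with library totals. For warmth in Col-0 and spaQ and genotype at 22 and 28 °C, 73.3%, 20%, 40% and 46.7% of the list passed. Over all genes the shares were 40.8%, 12.4%, 42.5% and 30.9%, and the difference was not tested. COPT2, a copper transporter of the cell surface, rose by 1.19 in warm Col-0 (SE 0.22, adjusted p 0.001), and in warm spaQ by 0.77 (adjusted p 0.0395), the latter in 11 of 20 alternatives. PETE1, a plastocyanin, was lower in spaQ at both temperatures (−1.97, adjusted p 3.2e-06, and −0.75, adjusted p 0.00257) and had an interaction of 1.22 (adjusted p 0.00677). CPN20, a chloroplast co-chaperonin, had an interaction of 1.05 (SE 0.215, adjusted p 0.011).

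Genes most like each tested member were sought among 12177 genes by the root mean square difference of centred log2 CPM over the 12 libraries. CAT2 had the closest relatives of the genes with a genotype difference, FTSH1 at 0.096 and PREP1 at 0.102, where the median over all genes was 0.741. For CAT3 they were AT4G11211 at 0.285 and MLP43 at 0.293 (median 1.525), for CSD2 CYCP2;1 at 0.26 and ARR4 at 0.304 (median 0.954), and for ZAT12 AT5G25930 at 0.288 and HSF4 at 0.311 (median 1.56). For CAT1 the closest was AT5G58730 at 0.154, for APX1 TRA2 at 0.145, for CSD1 UGE3 at 0.233, for FSD1 GLDH at 0.199, and for MSD1 PDE345 at 0.0606. These are likenesses over libraries that share groups, and no test goes with them.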

How the data were processed

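Transcripts of Arabidopsis thaliana seedlings were counted in 12 libraries of 3′ Tag-Seq. The deposited values are raw read counts per gene, 1 column per library, with replicates not pooled. Per the submitters' processing notes, FastQC, Bowtie2, TopHat, HTSeq and edgeR were used, with no versions; the build, the annotation, the strand setting and any removal of duplicate reads are not given in the sources used here. Summary lines at the end of the table (5) were left out. Groups came from the sample titles, and columns were matched to samples by their names.

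Counts were fitted with edgeR 4.0.16 in R 4.3.3 over all 12 libraries, with filterByExpr (17841 of 33655 features kept), TMM factors and 1 coefficient per group. Each of 5 contrasts was tested by the two-sided quasi-likelihood F-test with Benjamini-Hochberg adjustment over all 17841 genes, a threshold of 0.05 and no minimum fold; the SE comes from the estimate and its F. Of the ratios between genes, only CAT2 over CAT3 was tested, by exact permutation. The fit was tested on simulated counts with the same spread for every gene and library and changes in warm Col-0 only. That test does not cover the uneven replicates of these data, nor the spaQ, genotype and interaction comparisons. Log2 CPM used a prior count of 2, and sequences and gene names came from RefSeq's TAIR10.1.

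Alternatives were DESeq2's size factors and Wald test (DESeq2 1.42.0), library totals, other filters, only the libraries compared, a replicate block and leaving out each library; leaving out both spaQ libraries that stood apart was chosen after seeing the data. The members and lists were chosen with earlier results of these data known. From each other list at most 3 genes per comparison were named, those that passed with a mean of at least 10 CPM and the largest change. CCS, COX5B1, HSFA2 and list genes named in further comparisons were described after their values were seen. Replicates differed by more than counting noise (chi-square per degree of freedom 1.47 to 24.8), so each was counted once. Molecular identifiers are not mentioned in the sources used here, so reads may not be independent molecules, and detection floors cover counting error only.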

Additional observations from a re-analysis of the deposited data

Results flagged for a closer look

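The warm response differed between Col-0 and spaQ by the test of the interaction in edgeR (adjusted p under 0.05) for 2 of the members and 14 of the other genes described. CSD2 stood at 2.48 on the log2 scale, spaQ minus Col-0, and ZAT12 at −2.83. Among the other scavenging genes the interaction was −1.47 for DHAR1, 0.96 for NTRC and 0.94 for GPX7, and for VTC2, which controls ascorbate synthesis, it was −0.51. Among the copper genes it was 1.22 for PETE1, 1.11 for CCS, 1.05 for CPN20 and 0.90 for COX5B1. In photorespiration it was 0.80 for SGAT and 0.65 for GLDP1. Among the signalling genes it was −5.69 for AT3G28580, −3.07 for ZAT10 and −2.62 for OXI1, and for the heat shock factor HSFA7A it was 1.36. CSD2, PETE1, CCS, CPN20, SGAT, AT3G28580, ZAT10 and OXI1 passed under all 19 alternatives. COX5B1 passed in 16 of 19, ZAT12 in 11, DHAR1 in 12, NTRC, GPX7 and VTC2 in 9 each, GLDP1 in 8 and HSFA7A in 6. No group held enough libraries for a check of single outlying values.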

How the results depend on the processing

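The 15 differences of members that passed kept their direction in all 298 recomputations and their side of the threshold in 276, with CSD1, CSD2, CAT2 and ZAT12 as the exceptions named above. None of the 42 sign changes passed in the setting that made it, and of the results they concern, APX1 between genotypes at 28 °C passed in another setting. With library totals, warmth in Col-0 gave 0.14 for FSD1 and 0.19 for MSD1, warmth in spaQ 0.030 for CAT2, genotype −0.020 for MSD1 at 22 °C and −0.10, −0.14 and −0.11 for APX1, MSD1 and ZAT12 at 28 °C, and the interaction −0.051, −0.064 and −0.12 for CAT1, FSD1 and MSD1. With no filter, warmth in Col-0 gave 0.017 for FSD1 and 0.064 for MSD1, and the interaction −0.032 for MSD1. For MSD1 in warm Col-0, only the libraries compared gave 0.028, and leaving out both spaQ libraries that stood apart gave 0.042. In warm spaQ, 1 member passed with library totals, by DESeq2's Wald test and without those libraries, and 2 with no filter, while only the libraries compared gave 418 genes in place of 2217. Leaving out 1 library gave 2 to 5 members in warm Col-0, 0 to 2 members and 1088 to 4024 genes in warm spaQ (without replicate 1 of spaQ at 22 °C and replicate 2 of spaQ at 28 °C), and 1 to 3 members and 885 to 2838 genes for the interaction. It also moved these not passing values across 0: in warm Col-0 APX1 (−0.0099 to 0.26), FSD1 (−0.36 to 0.12) and MSD1 (−0.045 to 0.047); in warm spaQ APX1 (−0.37 to 0.042), CAT2 (−0.080 to 0.041), CSD1 (−0.12 to 0.34), CSD2 (−0.14 to 0.45), FSD1 (−0.11 to 0.23) and MSD1 (−0.010 to 0.11); between genotypes at 28 °C ZAT12 (−0.26 to 0.56); and for the interaction CAT1 (−0.013 to 0.29), FSD1 (−0.11 to 0.41) and MSD1 (−0.018 to 0.088). The cause was not tested, apart from the smaller number of libraries that each of these fits holds.

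Replicate numbers did not pair the libraries: over 18 pairs the deviations of same-numbered libraries correlated at −0.04 on average (−0.37 to 0.18, 2 pairs over 0.1). With the replicate block the interaction passed for 1343 genes and 1 member, CSD2, in place of 2117 and 2, and CSD1 at 28 °C had an adjusted p of 0.0502. APX2, at 0 to 46 counts, and the MIR398 precursors are limited by depth.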
